A study of Drosophila melanogaster with 2 samples.

Results

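Peaks at one-directional promoters are the places where the tagged product of CG11398 was pulled down close to a transcription start site (TSS) that faces one way, without a protein-coding start on the opposite strand nearby. A thresholded peak was taken as a member when its summit lay within 500 bp of any annotated TSS, unless protein-coding TSSs on both strands were within 500 bp. The rule used the position of the summit and the annotation, and no signal value. It gave 1031 of 2712 thresholded peaks (38%, exact 95% interval 36.2 to 39.9), or 70.2% of the 1468 peaks within 500 bp of a TSS. The other 437 promoter peaks stood at divergent pairs of protein-coding genes, and 1244 peaks lay away from start sites. The members were spread over all main arms, with 195 on 2L, 215 on 2R, 207 on 3L, 236 on 3R, 175 on X and 3 on chromosome 4.

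The data came from chromatin immunoprecipitation and sequencing (ChIP-seq) of whole Drosophila melanogaster embryos, aged 0 to 24 h and of both sexes. The flies were of the strain CG11398-GFP, a transgenic line in which CG11398 carries GFP (eGFP) at its C terminus, and an antibody to GFP was used for the pull-down. There was 1 group of 2 samples, biological replicates 1 and 3 per the labels, and no other genotype or treatment. The sources used here do not give the promoter that drives the transgene or the state of the native gene. The immunoprecipitate pooled all cells of the embryo, so a site bound in few cells and a site bound weakly in many cells cannot be told apart. The lists carry no read counts, so depth is unknown, and no control was used here. Regions are not replicates, and with 1 group no comparison between conditions exists. Shares and medians are therefore given as descriptions with exact 95% intervals, which cover counting error only.

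A promoter is the stretch of DNA around a TSS where RNA polymerase II and the general transcription factors assemble. In Drosophila, genes that most cells use often carry the DNA replication-related element, bound by the factor Dref, or the core elements known as Ohler motifs, and start transcription over a spread of positions. Genes with restricted expression more often carry a TATA box and an initiator, and many genes have alternative start sites with a promoter of their own. Neighbouring genes that face away from each other can share one regulatory stretch, whereas a one-directional promoter serves a single orientation.

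The sequences at the summits of strong members show what these places look like. Each is the 100 bases around a summit, 5' to 3' on the strand of the nearest gene, in the dm6 build from the Release 6 genome of RefSeq, chosen among the strongest members whose 100 bases touch no annotated untranslated region. All letters are in lower case because none of these 4 holds the DNA replication-related element, the Forkhead core, the letters TATAAA or TAATTA, the E-box CAGCTG or Ohler motif 1. Their GC content was 27% at CG14100, 42% at lncRNA:CR31840, 33% at ph-p and 37% at CG31145, against a median of 40.6% over all members. Strong members that passed the same choice but are not printed include gish, at 23%, and lncRNA:CR44619, at 26%.
CG14100 (chr3L:19590559-19590658, minus strand): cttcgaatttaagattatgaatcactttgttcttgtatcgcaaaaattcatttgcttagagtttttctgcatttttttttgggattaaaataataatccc
lncRNA:CR31840 (chr2L:14024020-14024119, minus strand): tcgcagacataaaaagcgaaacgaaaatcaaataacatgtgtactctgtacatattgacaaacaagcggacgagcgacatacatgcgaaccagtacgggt
ph-p (chrX:2137294-2137393, minus strand): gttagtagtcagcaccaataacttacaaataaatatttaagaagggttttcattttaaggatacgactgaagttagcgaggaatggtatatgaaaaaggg
CG31145 (chr3R:23669760-23669859, minus strand): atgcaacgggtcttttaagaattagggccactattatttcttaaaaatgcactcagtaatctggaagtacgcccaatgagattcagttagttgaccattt

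A second set shows members that hold a consensus site, with the site each was chosen for in capitals. The peaks of Hmt4-20 and Ptpmeg2 hold the Forkhead core, in these lines as its reverse complement. The peak of CG18549 holds the letters of the TATA box, and that of Rtnl1 holds them on the other strand. The line of CG18549 also has the homeodomain core, left in lower case. At CG7006 and Tpr2 it is the DNA replication-related element TATCGATA, which reads the same on both strands. They are among the strongest members with each site that passed the same choice. Their pooled signals were 298 at Hmt4-20, 296 at Ptpmeg2, 578 at CG18549, 561 at Rtnl1, 109 at CG7006 and 96.1 at Tpr2. These values follow from the choice of lines, since the highest pooled signal of a member with TATCGATA was 497.
Hmt4-20 (chrX:655085-655184, minus strand): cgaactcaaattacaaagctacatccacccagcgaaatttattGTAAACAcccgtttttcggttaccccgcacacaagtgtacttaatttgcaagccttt
Ptpmeg2 (chrX:9650892-9650991, minus strand): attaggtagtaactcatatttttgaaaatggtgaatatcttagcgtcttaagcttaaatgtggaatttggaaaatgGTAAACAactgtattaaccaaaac
CG18549 (chr3R:12449143-12449242, plus strand): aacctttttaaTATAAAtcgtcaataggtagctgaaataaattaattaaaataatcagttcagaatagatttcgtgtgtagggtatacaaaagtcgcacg
Rtnl1 (chr2L:4997593-4997692, minus strand): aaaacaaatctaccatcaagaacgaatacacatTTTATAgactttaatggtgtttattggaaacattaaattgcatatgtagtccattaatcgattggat
CG7006 (chr3R:24850512-24850611, plus strand): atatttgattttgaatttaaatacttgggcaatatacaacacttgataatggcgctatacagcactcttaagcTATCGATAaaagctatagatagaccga
Tpr2 (chr2L:16491415-16491514, plus strand): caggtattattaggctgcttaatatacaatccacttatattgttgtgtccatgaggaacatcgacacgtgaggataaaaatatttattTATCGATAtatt

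The members sat mostly upstream of the nearest start. The median summit was at -78 bp (95% interval -95 to -64), and 699 of 1031 (67.8%, 64.8 to 70.6) lay upstream. The middle 50% of summits reached from -206 to 30.5 bp, and 38.8% were within 100 bp of the TSS. Peaks at divergent pairs were more tightly placed, with 73.7% within 100 bp and 74.1% upstream of the nearest start. A divergent pair has starts on both sides, so its nearest start is closer by construction. More than 200 bp upstream lay 26.0% of the members' summits and 2.52% of those of divergent peaks, and more than 200 bp downstream 9.21% and 1.37%.

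Weak regions at the same kind of promoter lay differently. The pooled relaxed list, which by its label also holds background, had 6782 further regions that met the same rule and overlapped no thresholded peak, so they are the weaker regions by construction. Their median summit was at 37 bp (32 to 44), inside the gene, and 42.8% were upstream. The bin from -200 to -101 bp held 19.5% (17.1 to 22) of members and 9.04% (8.37 to 9.75) of the other regions. The bin from 300 to 500 bp held 6.21% of members and 17.9% of the others. With the summits of replicate 1 the median offset was -78 bp and 67.8% were upstream, and with those of replicate 3 it was -87 bp and 69.9%. For each member the replicate region with the summit nearest to the pooled one was taken, which largely fixes a like placement. With members taken from 1 replicate alone, the median was -62 bp and 63.8% were upstream without replicate 3. Without replicate 1 it was -94 bp and 71.5%. At 905 members (87.8%) the deposited summit was within 1 bp of the middle of the region, whose median width was 416 bp.

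**Figure D1:**
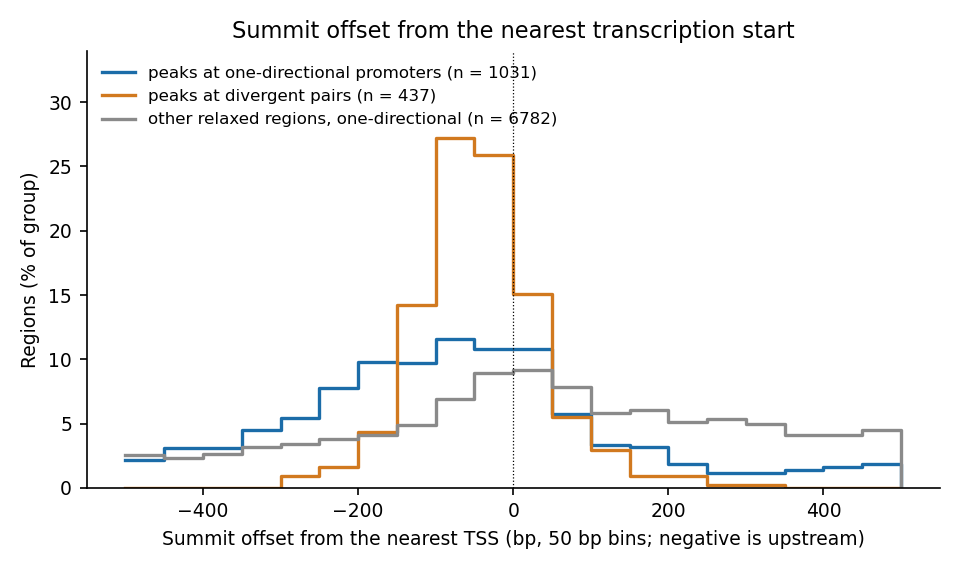
Share of regions (%) in 50 bp bins of the distance from summit to nearest TSS (bp, negative is upstream), for the 1031 peaks at one-directional promoters, the 437 peaks at divergent pairs and the 6782 other relaxed regions at one-directional promoters. The members form a broad shoulder upstream of the start, the divergent peaks a narrow one, and the other relaxed regions extend into the gene.

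In the gene model the summits were mostly outside coding sequence. Between genes lay 375 summits (36.4%), in the 5' untranslated region 271 (26.3%) and in an intron of the same gene 247 (24.0%). An intron of another gene held 56, a non-coding exon 55 and a 3' untranslated region 9. Coding sequence held 18 summits (1.75%, 1.04 to 2.75), compared with 20.4% (19.5 to 21.4) of the other relaxed regions at one-directional promoters. Members in introns of their own gene had a median offset of -175 bp, and those in the 5' untranslated region one of 34 bp.

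Protein-coding genes were nearest to 922 members (89.4%, 87.4 to 91.2), close to the 87.1% (86.2 to 87.8) of the other relaxed regions. Long non-coding RNA genes were nearest to 78 members (7.57%) and antisense RNA genes to 14. Small nuclear RNA (snRNA) genes were nearest to 6, tRNA genes to 4 and snoRNA genes to 3. Pre-miRNA genes were nearest to 2 members, mir-9378 and mir-4962, with 1 member each at a mature miRNA beside mir-14 and at the pseudogene CR42875. Most members had a simple setting, since 927 (89.9%) had a single gene within 500 bp. A further 32 had at least 2 protein-coding genes in the same orientation, and 48 had starts on both strands once non-coding genes were counted. Counted over all members, 128 (12.4%) had a protein-coding start facing the other way at 501 to 1000 bp, just beyond the limit. These groups overlap, since members with a single gene within 500 bp, such as those at Ugalt and PNPase, are among the 128.

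The members touched 954 nearest genes, of which 883 had 1 member and 66 had 2. Members came close to each other in 54 neighbouring pairs within 1000 bp, and 77 members overlapped another thresholded peak. The 2 members at CG31145 were deposited as the same region with 2 summits, 1 strong and 1 weak.

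Alternative starts were common at these genes. Starts of a gene within 100 bp of each other were joined into a start cluster, numbered from the most 5' one. Of the 922 members nearest to a protein-coding gene, 538 (58.4%, 55.1 to 61.6) belonged to genes with at least 2 clusters, compared with 48.7% (47.4 to 49.96) of the other relaxed regions and 23.6% of all 13945 annotated protein-coding genes. A gene with more clusters offers more places to be counted, so these shares are not rates per gene. Among the 538, 326 (60.6%, 56.3 to 64.7) stood at an internal cluster, below the 65.4% (63.6 to 67.1) of the other relaxed regions. Of the annotated clusters of such genes 39.8% are first ones, and 39.4% of the 538 members were at a first cluster. These shares pool genes with different numbers of clusters, and the rule leaves out peaks at divergent pairs. An even spread over the clusters cannot be read from them. Genes with exactly 2 clusters had 139 of 255 members (54.5%, 48.2 to 60.7) at the first cluster, whereas 44.6% (42.0 to 47.2) of the other relaxed regions were there. Peaks at divergent pairs were at a first cluster in 67.1% of 170 cases.

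Members at internal clusters lay further from their start. Their median offset was -133.5 bp (-164 to -106), against -53 bp (-73 to -20) at first clusters and -66 bp (-89 to -48) at genes with a single cluster. Their signals were alike, with medians of 117, 113 and 113. The intervals of the signal medians overlap, whereas that of the offset at internal starts lies further upstream than those of the others.

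Members stood at 2 or more start clusters in 38 genes and at 3 clusters in 3 of them. Rtnl1, which encodes a reticulon that shapes the endoplasmic reticulum, had members at clusters 3, 4 and 6 of 7, all inside its introns. The strongest, at -262 bp from cluster 6, had a pooled signal of 561 (272 in replicate 1 and 296 in replicate 3). Those at clusters 3 and 4 had pooled signals of 261 and 114. At dnc, which encodes a cAMP phosphodiesterase needed for learning, 4 members were nearest to clusters 2, 6 and 8 of 9, with pooled signals from 115 to 389. Ptpmeg2, a gene for a protein tyrosine phosphatase, had members at clusters 2, 4 and 5 of 6 with nearly equal pooled signals of 296, 319 and 279. In each of these 3 genes the first cluster had no member, and all 10 summits lay between -364 and -164 bp from the start they were nearest to. These genes were named because their members lie near several starts, so the pattern itself is a description, and use of a start was not measured.

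Signal values are those of the authors' lists, whose normalization is not stated. Over the members the pooled signal had a median of 115 (111 to 118), with a middle 50% from 92.5 to 162.6 and a range from 79.8 to 1326. Divergent peaks had a median of 116 and peaks away from starts one of 114. Members made up 13 of the 25 strongest peaks of the list, 40 of the strongest 100 and 517 of the stronger 50%. The one-directional setting thus spanned the whole range of strength. The pooled signal was close to the sum of the replicate signals, with a median ratio of 1.00 and a middle 50% from 0.981 to 1.02.

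The strongest members were a mixed set of genes. The first was at px, named for its effect on wing veins, with its summit at -184 bp from an internal start (chr2R:22514111-22514488). Its signal was 682 in replicate 1 and 644 in replicate 3. CG14100 followed at 575 and 663, and Ugalt, which encodes a UDP-galactose transporter, at 638 and 602. The fourth was the non-coding gene lncRNA:CR31840 (chr2L:14023911-14024255), at 608 and 499.9, with the summit 29 bp inside its exon. In all 4 the log2 ratio of the replicates was smaller than its SD over the members, 0.57, and neither replicate was always the higher.

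Further members of the strongest 20 belong to chromatin, signalling and RNA genes. At ph-p, a Polycomb group gene, replicate 1 had 462 and replicate 3 had 489.9, at -489 bp from an internal start (chrX:2137188-2137545), near the edge of the rule. At gish, which encodes a casein kinase, it was 429 and 335, and at Sox14, a Sox transcription factor gene, 359 and 318. At larp, which encodes a La-related RNA-binding protein, it was 336 and 332 (chr3R:28326427-28326773), at the last of 5 start clusters. At PNPase, a gene for a mitochondrial RNA-degrading enzyme, it was 515 and 442, and at mRpL41, a mitochondrial ribosomal protein gene, 419 and 418. The list was completed by CG1888, CG31145, GstE13, lncRNA:CR31044, CG18549, asRNA:CR45928 beside eIF6, Rtnl1, Atf3 and 2 peaks at lncRNA:CR44619. Their pooled signals ran from 541 at Atf3 to 932 at CG1888.

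**Figure D2:**
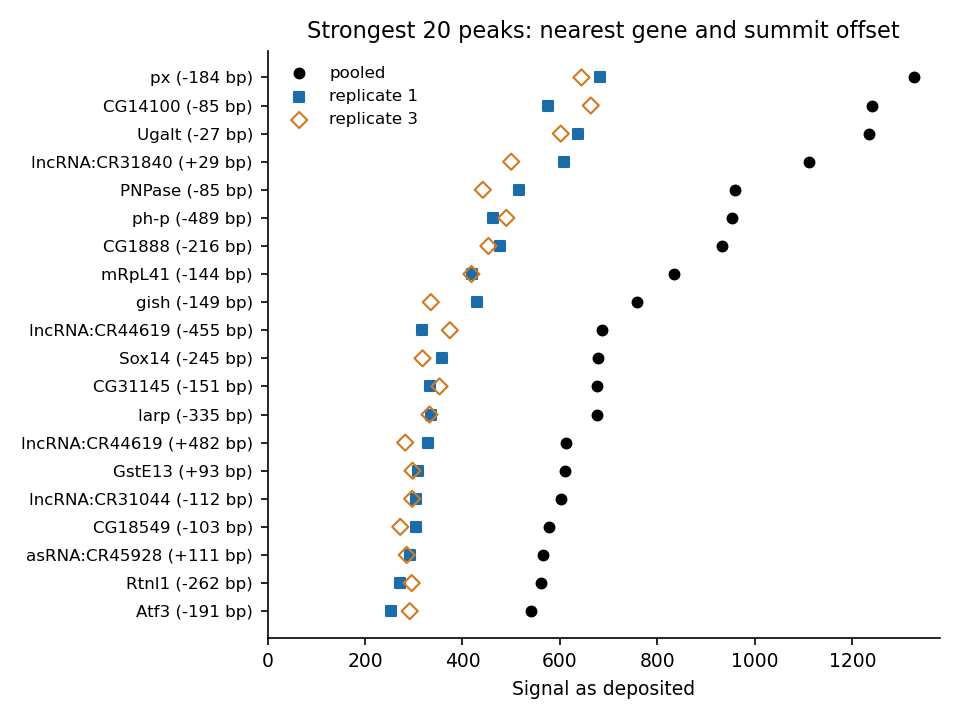
Deposited signal of the 20 strongest members, labelled by nearest gene and summit offset from its TSS (bp), in the pooled list (black circles), replicate 1 (blue squares) and replicate 3 (open orange diamonds). The replicate values lie close together for each peak, such as 419 and 418 at mRpL41, and the pooled value is near their sum.

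Some of the strongest members were nearest to non-coding genes. Their share at the top was not compared with their share over all members. Among the 85 members with no protein-coding TSS within 500 bp (8.24%, 6.64 to 10.1), the 4 strongest were at lncRNA:CR31840, at lncRNA:CR44619 on both sides of its start, and at lncRNA:CR31044. The 2 peaks of lncRNA:CR44619 lay at -455 and 482 bp, with signals of 318 and 374 for the first and 329 and 283 for the second in replicates 1 and 3. The next was at mir-9378, at 203 and 159. Over all members the median pooled signal was 123 (111 to 140) for long non-coding RNA genes and 115 (110 to 118) for protein-coding ones, with overlapping intervals. The other relaxed regions had no protein-coding start within 500 bp in 11.3% (10.6 to 12.1) of cases.

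Stronger members lay further upstream and in poorer GC. Ranked by signal and divided into 4 groups of nearly equal size, the strongest group had a median offset of -161.5 bp (-182 to -132), and the next ones -82, -62 and -33 bp (-55 to -7 in the weakest). Upstream summits made up 81.0% (75.7 to 85.6) of the strongest group and 60.1% (53.8 to 66.1) of the weakest. The share of summits more than 200 bp upstream went from 18.2% in the weakest to 36.4% in the strongest group. The median GC content within 50 bp of the summit was 34.7% (32.7 to 35.6) in the strongest group and 44.6% (42.6 to 45.5) in the weakest. Over all members it was 40.6% (39.6 to 41.6), compared with 38.6% for divergent peaks, 47.5% for the other relaxed regions and 42.6% for 14462 windows placed at one-directional protein-coding starts. Seen by position, members from -200 to -101 bp had the highest share in the stronger 50% of the list, at 63.7% (56.6 to 70.3), and those from 0 to 99 bp had 36.5% (29.2 to 44.2). An internal start was nearest for 70.4% (62.2 to 77.8) of the strongest group at genes with several clusters, and for 54.4%, 55.7% and 61.1% of the next ones, so this share did not change steadily. GC content, offset and signal moved together here, and the part of one in another was not tested.

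**Figure D3:**
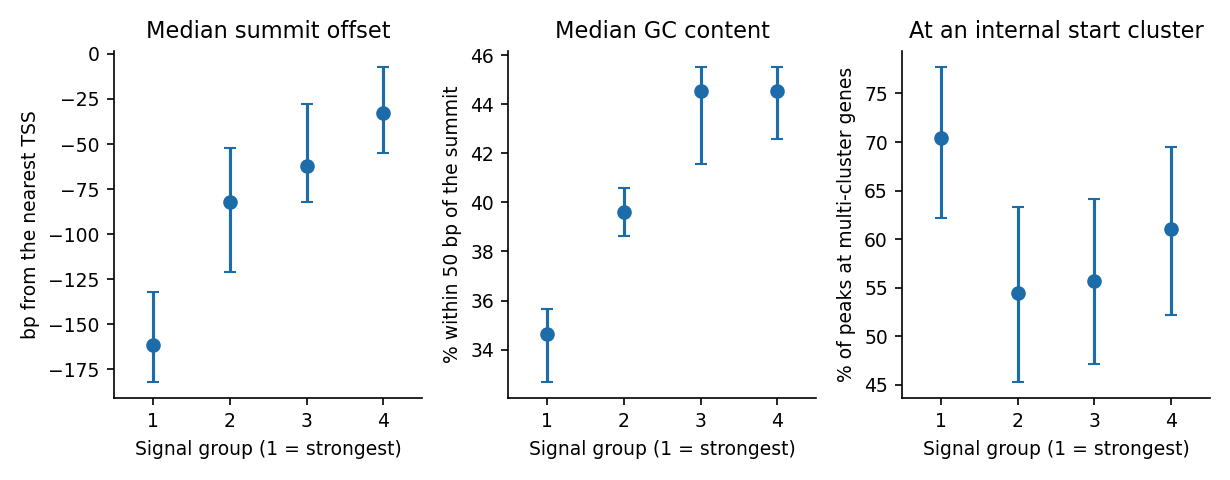
Median summit offset (bp from the nearest TSS), median GC content (% within 50 bp of the summit) and share at an internal start cluster (% of members at protein-coding genes with several clusters) for the 4 signal groups of the members, with 95% intervals. Offset and GC content shift from the strongest to the weakest group, whereas the internal share is highest in the strongest group and overlaps among the other groups.

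The replicates ranked the members alike only in part. Each of the 1031 members had an overlapping relaxed region in both replicates, which the choice of thresholded peaks largely fixes. The median signal was 63.6 in replicate 1 (range 14.6 to 682) and 53.9 in replicate 3 (12.2 to 663). Spearman's rank correlation of the 2 signals over the members was 0.604, as a description over regions that share libraries. The replicate summits were 28 bp apart in the median, and within 100 bp of each other for 931 members (90.3%). The choice of the region with the nearest summit favours small distances.

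The balance between the replicates differed between kinds of promoter. The log2 ratio of replicate 1 over replicate 3 had a median of 0.21 over the members (0.17 to 0.25; SD 0.57), and 713 members (69.2%, 66.2 to 72.0) were higher in replicate 1. Divergent peaks had a median of -0.03 (-0.07 to 0.02), and 206 of 437 (47.1%, 42.4 to 51.9) were higher in replicate 1. Peaks away from starts, with a median of 0.22, were like the members. Within the members the log2 ratio was larger downstream of the start, with a median of 0.40 (0.29 to 0.55) and 60 of 67 higher in replicate 1 between 100 and 199 bp, against 0.13 (0.08 to 0.20) between -200 and -101 bp. How the signals were scaled between the lists is not stated, so these ratios describe how positions and promoter kinds differ from each other and not which replicate was stronger as a whole. The difference was not tested, as all peaks come from the same 2 libraries.

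**Figure D4:**
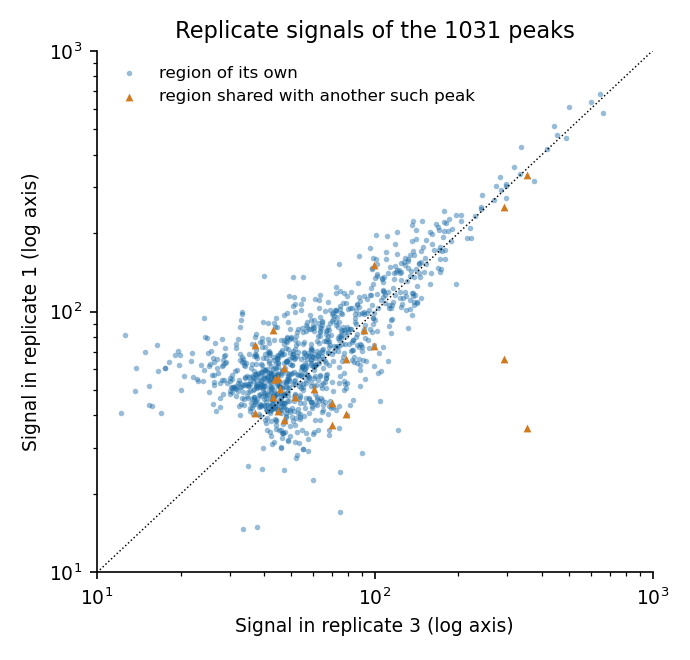
Deposited signal of each of the 1031 members in replicate 1 against replicate 3, both on log axes, with the line of equality dotted. Circles have a replicate region of their own and triangles share it with another member. More members were higher in replicate 1 (713) than in replicate 3, and points near the strong end lie close to the line.

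Some members differed widely between the replicates. At lin-28, which encodes an RNA-binding protein of stem cells, replicate 1 had 81.4 and replicate 3 had 12.6, which gave the highest log2 ratio, 2.69. At Trx2, a thioredoxin gene, it was 74.3 and 16.5, at cib, whose product binds actin, 60.8 and 13.9 (34.5 in replicate 3 by the strongest overlapping region), and at Gadd45, a stress-response gene, 94.2 and 24.3. For the fibroblast growth factor gene bnl it was 70.2 and 14.9. Of these summits 4 lay in the 5' untranslated region, and that of bnl lay upstream at -81 bp. In the other direction the 3 lowest log2 ratios came from weaker summits beside a stronger peak, at CG31145 (-3.30), Atf3 (-2.15) and CG32137 (-2.13). At CG31145 and Atf3 the region of replicate 3 was that of the stronger neighbour, and 24 members shared a replicate region in this way. At CG32137 a stronger region of replicate 1 overlapped the peak with its summit further away, at 119 in place of 17.1. With the strongest overlapping region in each replicate, chosen after seeing the data, the median over the members was again 0.21 and the lowest ratio became -1.79, at CG9399 with 35.0 in replicate 1 and 121 in replicate 3.

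The gene lists were read against a background. Of the 30000 pooled relaxed regions 11.2% overlapped a thresholded peak by at least 1 bp. Among those at one-directional promoters it was 1292 of 8074 (16%, 15.2 to 16.8), among those at divergent pairs 551 of 1769 (31.1%), and away from starts 1509 of 20157 (7.49%). Of the 6408 genes with a relaxed one-directional region within 500 bp of a start, 1058 had a member, or 16.5%. Counted so, 900 of 5135 protein-coding genes (17.5%) and 89 of 554 long non-coding RNA genes (16.1%) had a member, next to 24 of 204 antisense RNA genes. Small lists have wide intervals and can change with 1 library, and no list was tested.

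Cytoplasmic ribosomal protein genes, which encode the core of the protein-making machine, had the highest share of the 27 lists. A member was present at 31 of the 50 genes with a relaxed region (62.0%, 47.2 to 75.3), or 36.0% of all annotated genes of the list. Their summits clustered at the start, with a median of -18 bp (-34 to 2) and, apart from RpS28a at 430 bp, all offsets from the ribosomal protein gene between -102 and 25 bp. The median pooled signal was 150 (124 to 171). RpL23A had the highest, with 205 in replicate 1 and 170 in replicate 3 (chr3L:1668633-1668872), followed by RpL30 with 152 and 153 and RpL24 with 142 and 149.97. Large and small subunits were both represented, for instance RpS28b at 116 and 139.9 and RpS4 at 103.8 and 87.4. RpS10b had 137 and 40.02, but a stronger region of replicate 3, at 143, overlapped the same peak. The peak counted for RpL22 is nearest to lncRNA:CR44966, and that of RpS28a is nearest to Mgat2.

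Translation factors had a member at 7 of 28 genes (25%, 10.7 to 44.9). The interval of each list in this paragraph includes the 16.5% over all genes. The peak at eIF6, which keeps ribosomal subunits apart, had 293 in replicate 1 and 286 in replicate 3, with its summit nearest to the start of asRNA:CR45928. Among elongation factors, eEF1gamma had 211 and 168, eEF2 115 and 79.6, and eEF1alpha1 83.4 and 90.7. The last had its summit at an internal start. eIF2A, eIF3c and eEF5 completed the list, with pooled signals of 156, 142 and 116. The RNA-binding regulators of translation had 5 of 13 (38.5%, 13.9 to 68.4), led by larp and by me31B, which encodes an RNA helicase of stored mRNAs (220 and 178), and joined by shep, Fmr1 and bel. Mitochondrial ribosomal proteins had 2 of 15, mRpL41 and mRpL4.

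Several other machines of the cell had few members by count, and several shares changed when a replicate was left out. Of the lists in this paragraph, only the respiratory chain has an interval that leaves out the 16.5% over all genes, lying below it. The proteasome had 1 of 13 (Rpn11, pooled 86.2), the V-ATPase proton pump 1 of 15 (Vha68-2, 100.2), and the respiratory chain with ATP synthase 1 of 34 (ATPsynC, 129; 2.94%, 0.0744 to 15.3). Splicing factors had 1 of 13 (B52, 169) and kinesins and dyneins 1 of 10 (nod, 93.8). Cyclins and their kinases had 2 of 13, and these were CycT and CycH, the cyclins of transcription kinases, at 90.4 and 85.7. Rab GTPases had 0 of 12. Without replicate 1 the share was 22.2% for the V-ATPase, 18.2% for splicing factors, 22.2% for kinesins and dyneins and 0% for cyclins. Without replicate 3 it was 18.2% for the V-ATPase, 5.56% for the respiratory chain, 23.1% for cyclins and 6.25% for Rab GTPases. Actin and tubulin genes had 4 of 8 with 6 peaks: alphaTub84B (90.5 in replicate 1 and 43.2 in replicate 3), Act5C (74.4 and 52.2), chic, which encodes profilin (69.3 and 49.4), and betaTub56D (59.6 and 24.2). In these strongest peaks of the 4 genes replicate 1 was higher and the summit lay just inside the gene, between 3 and 91 bp. The second peak of Act5C, at -455 bp and nearest to lncRNA:CR45668, had 32.1 in replicate 1 and 48.7 in replicate 3, and that of chic had 49.2 and 33.7. Without replicate 1 the share of the list was 33.3%. Heat shock chaperones had 4 of 13. Hsp83 led with 206 and 141, Hsp26 had 100.1 and 72.6, Hsp27 68.5 and 60.2, and Hsp110 65.9 and 26.9.

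Transcription and chromatin genes gave a mixed account, and the interval of each list in this paragraph includes the 16.5% over all genes. Forkhead factor genes had 4 of 9 (44.4%, 13.7 to 78.8) with 6 peaks. They were fkh (176 in replicate 1 and 96.5 in replicate 3), CHES-1-like with 3 peaks (112.6 and 123 for the strongest), FoxK (92.8 and 59.2) and croc (58.2 and 46.2). Sox factors had 2 of 6, Sox14 and Sox102F, whose peak on chromosome 4 had a pooled signal of 99.3. GATA factors had 0 of 5. Polycomb group genes had 3 of 9: ph-p, Psc (85.5 and 57.9) and Scm (14.6 and 33.6, pooled 81.4). At Scm a stronger region of replicate 1, at 37.7, overlapped the same peak. The trithorax group had 1 of 11, at Trl, which encodes the GAGA factor (139 and 101.5), and insulator genes 1 of 7, at CTCF (46.3 and 37.8). Nuclear receptor and ecdysone genes had 5 of 15: Eip75B (177 and 149, at the fifth of its start clusters), Hnf4, ERR, ftz-f1 and Hr3. Hox and segmentation genes, the classic patterning genes of the embryo, had 1 of 23 (4.35%, 0.110 to 21.9), at bcd with 48.04 and 47.5. Without replicate 1 the trithorax share was 25% and the insulator share 0%. Without replicate 3 they were 37.5% and 42.9%, the Sox share 14.3% and the Hox and segmentation share 8.70%. With 1 TSS per gene the nuclear receptor share was 11.1% and the trithorax share 0%, and with a 200 bp window the Sox share was 0%.

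Signalling receptors and ligands had a member at 6 of 34 genes (17.6%, 6.76 to 34.5), near the background. The ligand gene spi of the EGF receptor had the strongest, at 172 in replicate 1 and 163 in replicate 3, and a weaker one further upstream of the same internal start. The insulin receptor gene InR had 55.8 and 66.7, with its summit on the start itself. The receptor gene N had 57.2 and 53.6. The growth factor gene bnl and its family's receptor gene htl had pooled signals of 83.1 and 82.9.

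Small RNA genes were counted by distance to their annotated start, so a nearby peak may belong to another gene. tRNA genes had a member at 11 of 146 (7.53%, 3.82 to 13.1) and pre-miRNA genes at 4 of 77 (5.19%, 1.43 to 12.8). Without replicate 1 the tRNA share was 11.5%, and without replicate 3 the pre-miRNA share was 10.5%. snoRNA genes had 11 of 103 (10.7%, 5.45 to 18.3), and several of these peaks are nearest to host genes such as Uhg4, Uhg1, RpS12 and RpS29. snRNA genes had 7 of 14 (50%, 23 to 77) with 6 peaks. The strongest were at snRNA:U1:95Ca (87.5 in replicate 1 and 73.9 in replicate 3) and snRNA:7SKa (89.1 and 56.3), and 1 peak lay near both snRNA:U6:96Ac and snRNA:U6:96Ab. snRNA and tRNA genes are repeated, so their values are uncertain where reads could be placed at more than 1 copy.

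**Figure D5:**
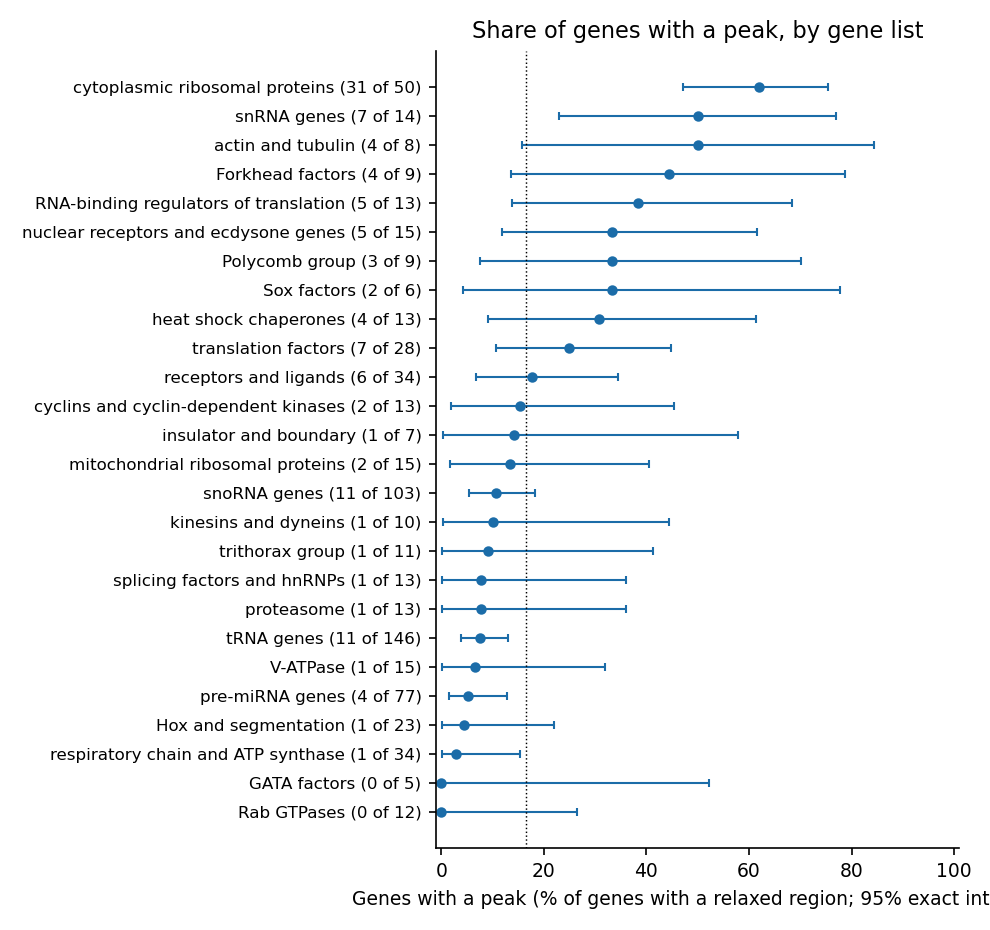
Share of genes with a member (% of genes with a relaxed one-directional region, with 95% exact intervals) for the lists with at least 5 such genes, and their counts in brackets. The dotted line is the share over all 6408 genes, 16.5%. Cytoplasmic ribosomal proteins and snRNA genes have intervals wholly above the line, tRNA, pre-miRNA and respiratory chain genes wholly below it.

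Consensus sites were counted at the summits, within 50 bp and on either strand. The DNA replication-related element TATCGATA was at 28 members (2.72%, 1.81 to 3.90), 6.18% (4.11 to 8.86) of divergent peaks, 1.40% (1.13 to 1.71) of the other relaxed regions and 3.17% of the windows at one-directional protein-coding starts. It contains the letters CGATA, found at 18.4%, 27.0%, 15.1% and 20.9% in the same order. All 28 members with the element were nearest to protein-coding genes, as were 89.4% of all members. The element lay within 100 bp upstream of the start in 89.3% of the 28. Their median summit offset was -34 bp, so the search within 50 bp of the summit largely sets this place. The element was at 26 of 596 members at first or single clusters (4.36%, 2.87 to 6.33) and at 2 of 326 at internal clusters (0.613%, 0.0744 to 2.20). Members at internal clusters lay further from their start, so an element close to that start could fall outside the searched 50 bp. How far this sets the difference was not tested. The element was at 5 of the 31 members at cytoplasmic ribosomal protein genes. Without replicate 3, among the strongest regions of replicate 1, the share over the members was 1.40%, and without replicate 1 it was 2.36%.

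The Forkhead core TGTTTAC was at 39 members (3.78%, 2.70 to 5.14), 4.81% of divergent peaks, 2.96% of the other relaxed regions and 2.40% of the start windows. By kind of start cluster its shares ran the other way from those of the Dref element, with the same limit of the searched window. Internal clusters held the Forkhead core at 6.13% (3.79 to 9.32) and first or single ones at 2.68% (1.54 to 4.32). Of the 39 members, 33 (84.6%, 69.5 to 94.1) were higher in replicate 1, against 68.5% (65.6 to 71.4) of the members without it. With this core at 39 and the Dref element at 28 of 1031 members, 1 member held both. Whether the 2 sites avoid each other was not tested. The median pooled signal of members with the Forkhead core was 134, compared with 103 for members with the Dref element.

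The TATA box letters TATAAA were at 135 members (13.1%, 11.1 to 15.3), compared with 7.70% (7.07 to 8.36) of the other relaxed regions and 19.5% of the start windows. Their median distance was -158.5 bp from the start, and 18.5% lay within the 100 bp upstream. Only the 50 bp on each side of the summit were searched, and the median summit offset of these members was -152 bp. The distance to the start thus largely follows the summit, and a TATA box nearer to the start could not be found there. Members with these letters had a mean GC content of 33.7%, and the share was 9.69% in the weakest and 16.7% in the strongest signal group, which also had the lowest GC content. The homeodomain core TAATTA, also free of G and C, did likewise (5.14% of members, 2.71% in the weakest and 7.75% in the strongest group). The run AAAAAAAA, included as a control, was at 5.33% of members and 5.15% of start windows.

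The remaining sites were near one or both comparison groups. The initiator core TCAGT was at 18.4% of members and 18.3% of the other relaxed regions, and the GAGA repeat GAGAG at 14.7% and 15.0%, with 6.86% of divergent peaks. GATAA was at 19.7% of members and 17.8% of the other regions. The E-box CAGCTG was at 4.95% against 6.62%, and the E-box CACGTG at 1.94% against 1.49%. The rare sites were the Zelda site CAGGTAG at 5 members, the ETS site CCGGAAG at 8, the AP-1 site TGACTCA at 10 and the CRE site TGACGTCA at 1. Ohler motif 1 was at 8 members (0.776%, and 0.279% without replicate 3), all at first or single clusters, motif 7 at 24 (2.33%) and motif 6 at 1, the peak of mRpL41. For motif 1, too, the search near the summit limits what could be found at internal clusters. A match says only that these letters stand near the summit.

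At the edge of the rule, CG4615 (pooled signal 130.2) and CG5854 (99.0) had summits at exactly 500 bp downstream and rdx (84.2) at -500 bp. Just outside were lncRNA:CR42657 (126) and SERCA (113) at -501 bp and Fbl6 (241) at 502 bp. Altogether 276 thresholded peaks lay between 501 and 1000 bp from the nearest start. With a limit of 200 bp the median offset was -47 bp and with 1000 bp -100 bp, so the distance upstream is in part set by the rule.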

How the data were processed

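ChIP-seq peak lists of 2 biological replicates of 1 group were analysed. Per the notes deposited with the files, the relaxed lists came from the alignments and a control, and the thresholded list is labelled as optimal by IDR, the irreproducible discovery rate. The sources used here do not give the aligner, the peak caller or its thresholds. The authors deposited a signal per region, whose normalization is not stated. The -log10 of the q-value deposited with each peak ran from 3.01 to 3.60 and was not used to rank. The summit is the deposited offset from the region start.

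The dm6 lists were joined to 18164 genes of Ensembl release 115 (transposons left out) on 6 main arms and to the RefSeq sequence of Release 6, and no pooled region ended past an arm. The dm3 lists were not used here. A replicate value is that of the overlapping relaxed region (at least 1 bp) with the nearest summit. Offsets are to the nearest TSS. Genes were named by rule: the 20 strongest members, up to 4 per list, the strongest non-coding ones, the 5 highest and lowest replicate ratios, genes with members at 3 start clusters, and members of small counts. The members, 27 gene lists and 18 sites were chosen with earlier results of these data known, and nothing was tested. The result of 1 list is not reported here. Exact binomial intervals (SciPy 1.17.1) and medians were computed in Python 3.11.15 with pandas 2.3.3, and the code was tested on simulated data. Alternatives changed the window, the TSSs, the overlap, the site window, the background and the replicates. Depth is unknown.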

Additional observations from a re-analysis of the deposited data

How the results depend on the processing

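Unless stated otherwise, the results below left the 95% interval of the reported value, and the cause was not tested. The direction of some changes is set by the alternative itself. A wider site window can only raise the share of a site. Counting all annotated genes, or only the stronger 50% of peaks, can only lower the share of a gene list. With a 200 bp window the share of promoter peaks was 79.6%, the median offset -47 bp, protein-coding nearest genes 93.6%, internal clusters 53.4%, the median signal 111, the median log2 replicate ratio 0.16, the DNA replication-related element 4.04% and ribosomal protein genes 75.4%. With 1000 bp the share was 66.7%, the offset -100 bp, protein-coding genes 87.1%, the element 1.80% and ribosomal protein genes 44.4%. With 1 TSS per gene the share was 66.9%, the offset -48 bp, upstream summits 59.8% and protein-coding genes 87.0%. With starts of any class counted on the other strand the share was 67.0%. In the stronger 50% of peaks the offset was -125 bp, upstream summits 74.5% and the log2 ratio 0.16. Without replicate 3 the share was 74.1%, the offset -62 bp, upstream summits 63.8% and the element 1.40%. Without replicate 1 upstream summits were 71.5%, whereas the share (68.0%), the offset (-94 bp) and the element (2.36%) stayed within the interval. With 50% reciprocal overlap 14.7% of relaxed one-directional regions were called. Within 100 bp of the summit the element was at 4.95% and the Forkhead core at 6.79%. Over all annotated ribosomal protein genes the share was 36.0%. Among single lists and sites, with 200 bp the Sox share was 0% and the E-box CAGCTG at 6.58%, and with 1000 bp mitochondrial ribosomal proteins and the proteasome had 0%. With 1 TSS per gene nuclear receptors had 11.1% and the trithorax group 0%. In the stronger 50% of peaks the proteasome, V-ATPase, cyclins, kinesins and dyneins, insulator and Hox and segmentation lists had 0%, receptors and ligands 5.88%, TATAAA 15.5% and CAGCTG 3.48%. Without replicate 1 cyclins and insulators had 0%, and without replicate 3 Ohler motif 1 was at 0.279%. Within 100 bp TATAAA was at 24.8%, Ohler motif 1 at 1.75%, CAGCTG at 11.0% and TAATTA at 9.89%. Over all annotated genes tRNA genes had 3.79%, snoRNA genes 4.09% and snRNA genes 21.9%. Shares of several other small lists crossed the 16.5% over all genes when a replicate was left out, within their wide intervals. The strongest overlapping replicate region, chosen after seeing the data, left the log2 ratio at 0.21. No paired analysis was possible because there is 1 group. Depth is unknown, so no detection limit can be given.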
